A study of Mus musculus with 11 samples.

Results

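The chemoattractant receptor genes Fpr1, Fpr2, C5ar1, C5ar2, C3ar1, Ltb4r1, Ptafr and Cmklr1, which let myeloid cells sense formyl peptides, complement fragments, lipid mediators and chemerin, were followed across 3 groups of mouse bone marrow cells that express mutant CSF3R alone or with mutant CEBPA in either order. The genes were picked by symbol and make up 8 of the 51912 genes in the table. RNA-seq read counts of 11 samples were scaled to library size with the trimmed mean of M-values and are given as TMM-normalized CPM, which put the libraries on one common scale.

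All 11 samples came from bone marrow of C57BL/6 mice that was transduced with retroviruses, sorted for lineage-negative cells carrying both GFP and RFP, and kept for 48 h with 4-hydroxytamoxifen. The marrow carried an inducible Cre recombinase (Rosa26 ERT2-Cre), so that the drug switched on whatever gene sat in the inducible vector, while the gene in the other vector was on throughout. In CSF3R-only cells (n = 4) a membrane-proximal activating mutant of human CSF3R, the receptor for granulocyte colony-stimulating factor, was constitutive and the inducible vector was empty. In CSF3R-first cells (n = 3) the same CSF3R mutant was constitutive and a mutant of human CEBPA with a change in its C-terminal DNA-binding part was switched on during the culture. In CEBPA-first cells (n = 4) the mutant CEBPA was constitutive and the mutant CSF3R was switched on in the culture. The comparisons ask how the order in which the oncogenes arrived was reflected in receptor transcripts. Order goes together with the vector used and with how long each oncogene was on, and these cannot be told apart. CSF3R-only also lacks the mutant CEBPA, so comparisons with it are not of order alone. The groups are models made by retroviral overexpression of human mutants, and no untransduced or CEBPA-only cells are among these 11 samples. The labels do not say whether replicates A to D came from separate animals or cultures, so p-values measure only the spread between these samples, which may be technical.

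The receptors are membrane proteins coupled to G proteins that guide phagocytes to sites of infection and injury. Formyl peptide receptors sense peptides that bacteria and mitochondria release, complement receptors bind the small fragments C5a and C3a that are cleaved off when complement is activated, and lipid receptors bind leukotriene B4 and platelet-activating factor. Most signal through inhibitory G proteins to phosphoinositide 3-kinase gamma, phospholipase C beta and Rac, and are then shut off by receptor kinases and arrestins. Neutrophils acquire many of them late in their maturation, and monocytes and macrophages carry several too.

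Total counts per library were between 49499527 and 65937530 for CSF3R-only, between 47905747 and 61069929 for CSF3R-first and between 49782847 and 72268346 for CEBPA-first. Every receptor was among the 15703 genes with enough counts to test. The endogenous mouse genes of the oncogenes are no check of the human transgenes. Mouse Cebpa stood at 87.2 ± 6.98, 131 ± 10.4 and 167 ± 6.12 CPM (SD) across the groups in the order CSF3R-only, CSF3R-first, CEBPA-first, and mouse Csf3r at 846 ± 94.9, 516 ± 118 and 153 ± 16.1 CPM. Reads of the transgenes may align to them in part, and stretches near-identical in other genes cover up to 60.8% of an annotated Csf3r transcript. That share is the highest over its annotated transcripts and does not describe the gene as a whole.

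CEBPA-first cells held less transcript of all 8 receptors than CSF3R-only cells, from 3.41-fold less C3ar1 to 88.7-fold less Fpr1. By point estimates the loss was steepest for the formyl peptide receptors and the chemerin receptor and shallowest for the C3a receptor. CSF3R-first cells lay between the other groups for every receptor by their means. A gene was called when edgeR's quasi-likelihood test gave a Benjamini-Hochberg adjusted p under 0.05 and a log2 fold change beyond 1 in size. In CEBPA-first against CSF3R-only 8 of 8 receptors were called lower, where 19% of all tested genes were. In CEBPA-first against CSF3R-first 7 of 8 were called lower, against 10.3% of all tested genes, and in CSF3R-first against CSF3R-only 7 of 8, against 4.53%. The last count fell to 4 without CSF3R-first replicate B or with library size as the scaling, and to 0 when edgeR's glmTreat tested against a log2 fold change of 1 (4 at an unadjusted p under 0.05). C3ar1 was the receptor not called in the latter comparisons. The median log2 fold changes of the 8 receptors were -3.45, -2.25 and -1.19 in these comparisons, beside medians of 0, 0 and -0.02 over all tested genes. The groups did not overlap for 8, 7 and 8 receptors, where 34.5%, 24.8% and 21.4% of all tested genes were lower without overlap. By adjusted p alone, 8 of 8 receptors were lower in each comparison, against 36.6%, 24.3% and 21.1% of all tested genes. C3ar1 lost this in CEBPA-first against CSF3R-first without CSF3R-first replicate A (edgeR adjusted p = 0.16) or CEBPA-first replicate B (0.073) or with only the compared groups fitted (0.06), and in CSF3R-first against CSF3R-only without CSF3R-first replicate B (0.073) or C (0.062). Each group takes part in 2 of the 3 comparisons, so that these counts are not independent of each other. In RNA from a mixture of cells, fewer cells that carry a receptor and less RNA per cell cannot be told apart.

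**Figure D1:**
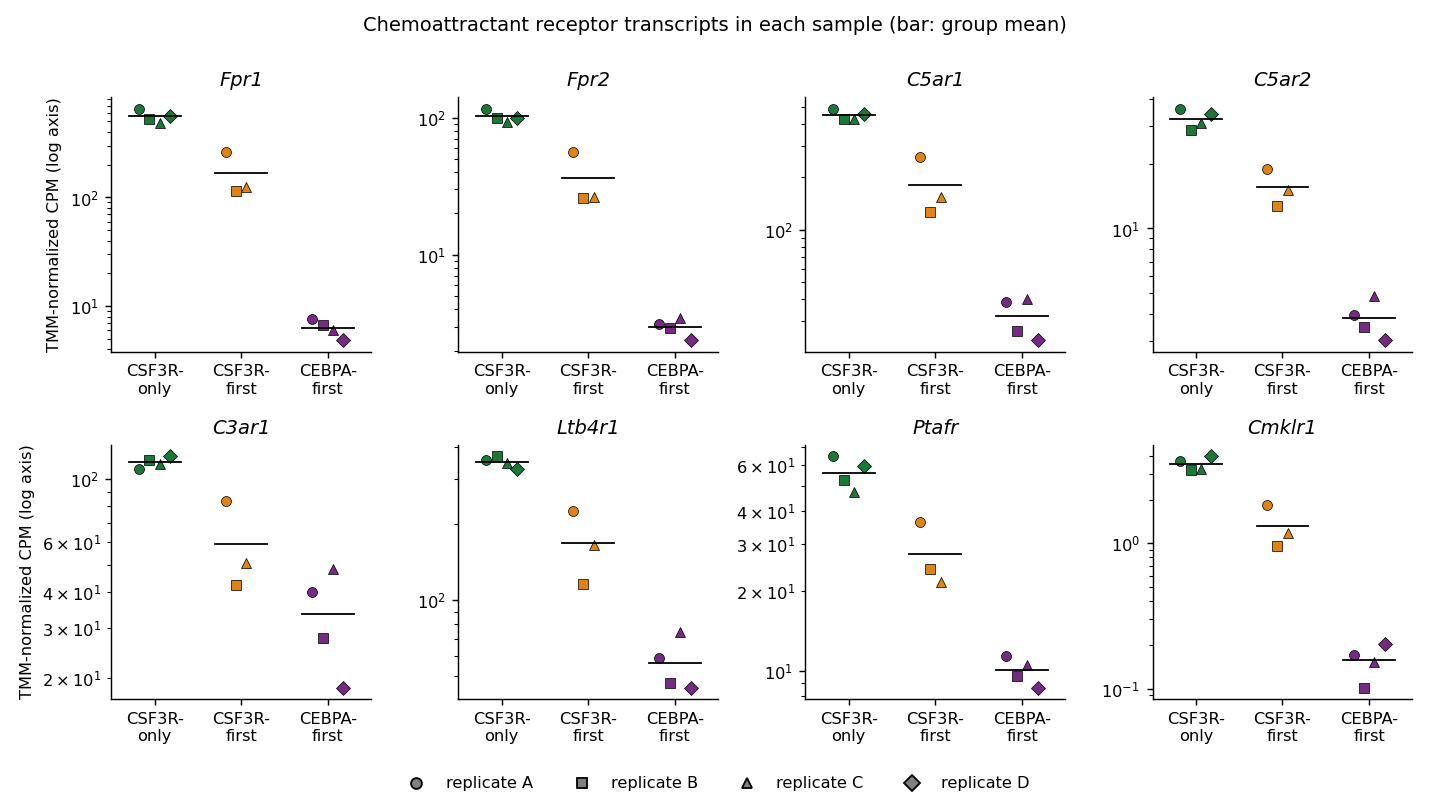
TMM-normalized CPM of each receptor (log axis, 1 panel per gene) in each of the 11 samples by group, with a bar at the group mean and a marker shape for the replicate letter. In each panel the CSF3R-only samples lie highest and the CEBPA-first mean lowest, and CSF3R-first replicate A is the highest of its group.

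The formyl peptide receptors had the largest fold changes of the 8 in CEBPA-first, by point estimates. Fpr1 (ENSMUSG00000045551) encodes the high-affinity receptor for formylated peptides and occupies chr17:17876471-17883940 on the minus strand of GRCm38. Fpr2 (ENSMUSG00000052270), whose receptor also binds serum amyloid A and the cathelicidin peptide, occupies chr17:17887824-17893952 on the plus strand. The genes are transcribed away from each other from starts 3884 bp apart. Their upstream sequences are shown as a description. Both lie in the stretch between the genes, whose part in their changes was not tested. Each run holds the 250 bases before the RefSeq start (GRCm38.p6), 5′ to 3′ on the gene's strand, for Fpr1 chr17:17883940-17884189 on the minus strand and for Fpr2 chr17:17887574-17887823 on the plus strand. Capitals mark a match to the STAT core named further on.
Fpr1: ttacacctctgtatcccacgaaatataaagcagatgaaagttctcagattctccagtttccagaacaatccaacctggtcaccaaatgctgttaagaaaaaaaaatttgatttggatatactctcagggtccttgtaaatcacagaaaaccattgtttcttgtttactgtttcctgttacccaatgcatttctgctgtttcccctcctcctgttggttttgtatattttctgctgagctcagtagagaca
Fpr2: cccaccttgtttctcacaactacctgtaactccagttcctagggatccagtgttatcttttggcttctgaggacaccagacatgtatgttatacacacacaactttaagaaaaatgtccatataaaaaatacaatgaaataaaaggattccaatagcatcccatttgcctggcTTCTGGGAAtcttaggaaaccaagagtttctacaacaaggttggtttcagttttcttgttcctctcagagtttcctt

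Fpr1 was at 655, 525, 489 and 558 CPM in CSF3R-only replicates A to D, at 260, 115 and 125 CPM in CSF3R-first replicates A to C, and at 7.56, 6.65, 6.08 and 4.88 CPM in CEBPA-first replicates A to D. The 3 groups stood well apart, with the highest CEBPA-first sample far below the lowest CSF3R-first sample. Fpr1 fell 88.7-fold in CEBPA-first against CSF3R-only (log2 fold change -6.47, SE 0.28, edgeR adjusted p = 1.4e-09), which placed it 22nd from the bottom of the 15703 tested genes. It fell 26.6-fold in CEBPA-first against CSF3R-first (-4.73, SE 0.27, edgeR adjusted p = 1.2e-07) and 3.34-fold in CSF3R-first against CSF3R-only (-1.74, SE 0.25, edgeR adjusted p = 0.00025). Fpr2 was at 116, 100, 92.7 and 99.3 CPM in CSF3R-only, at 56.3, 25.9 and 26.4 CPM in CSF3R-first and at 3.15, 2.95, 3.45 and 2.39 CPM in CEBPA-first. Again no sample of a group reached another group. Fpr2 fell 34.4-fold in CEBPA-first against CSF3R-only (log2 fold change -5.10, SE 0.25, edgeR adjusted p = 3.4e-09), 12.2-fold against CSF3R-first (-3.61, SE 0.25, edgeR adjusted p = 5.2e-07) and 2.82-fold in CSF3R-first against CSF3R-only (-1.50, SE 0.23, edgeR adjusted p = 0.00039). The Fpr2 exons overlap those of Fpr3 on the same strand over 3.70% of their bases, and Fpr3 held at most 2 counts in a sample.

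The neighbours were compared within each sample. The log2 CPM of Fpr1 exceeded that of Fpr2 by 2.44 ± 0.06 (SD, n = 4) in CSF3R-only, by 2.20 ± 0.04 (n = 3) in CSF3R-first and by 1.06 ± 0.19 (n = 4) in CEBPA-first. This difference changed by -1.38 from CSF3R-only to CEBPA-first, by -1.14 from CSF3R-first to CEBPA-first and by -0.24 from CSF3R-only to CSF3R-first. In each comparison the groups did not overlap, and the two-sided exact permutation p was 0.0286, the smallest the design allows. Adjusted over the 15 tests made on 5 receptor pairs it was 0.0613, so none of the 15 passed 0.05.

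Among the complement receptors, the C5a receptors fell and the C3a receptor had the smallest fold changes. C5ar1 (ENSMUSG00000049130, chr7:16246743-16259540, minus strand) encodes the main receptor for C5a, a strong attractant of neutrophils. C5ar2 (ENSMUSG00000074361, chr7:16234585-16244154, minus strand) encodes a receptor for C5a that couples poorly to G proteins and starts 15386 bp from C5ar1 on the same strand. C3ar1 (ENSMUSG00000040552, chr6:122847138-122856161, minus strand) encodes the receptor for C3a. C5ar1 was at 492, 431, 428 and 458 CPM in CSF3R-only, at 262, 126 and 153 CPM in CSF3R-first and at 38.8, 26.4, 40.3 and 23.4 CPM in CEBPA-first. The groups did not overlap, and the CSF3R-first samples spread more widely than those of CSF3R-only. C5ar1 fell 14.1-fold in CEBPA-first against CSF3R-only (log2 fold change -3.81, SE 0.24, edgeR adjusted p = 2.6e-08), 5.60-fold against CSF3R-first (-2.48, SE 0.24, edgeR adjusted p = 5.8e-06) and 2.51-fold in CSF3R-first against CSF3R-only (-1.33, SE 0.24, edgeR adjusted p = 0.001).

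C5ar2 was at 35.9, 28.5, 30.9 and 34.0 CPM in CSF3R-only, at 18.9, 12.7 and 15 CPM in CSF3R-first and at 3.97, 3.51, 4.88 and 3.04 CPM in CEBPA-first. Its groups were as separate as those of C5ar1, at lower levels. C5ar2 fell 8.44-fold in CEBPA-first against CSF3R-only (log2 fold change -3.08, SE 0.16, edgeR adjusted p = 4.3e-09), 4.05-fold against CSF3R-first (-2.02, SE 0.16, edgeR adjusted p = 1.5e-06) and 2.09-fold in CSF3R-first against CSF3R-only (-1.06, SE 0.16, edgeR adjusted p = 3e-04). The last call was lost without CSF3R-first replicate B, at a log2 fold change of -0.93. Up to 8.52% of a C5ar2 transcript has near-identical copies elsewhere, and 3.57% of its exon bases lie in Gm26473.

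C3ar1 was at 108, 116, 113 and 120 CPM in CSF3R-only, at 83.7, 42.5 and 50.5 CPM in CSF3R-first and at 40.0, 27.6, 48.2 and 18.5 CPM in CEBPA-first. The CSF3R-only samples stood above all others, and CEBPA-first replicate C lay above CSF3R-first replicate B. C3ar1 fell 3.41-fold in CEBPA-first against CSF3R-only (log2 fold change -1.77, SE 0.26, edgeR adjusted p = 4e-05). Its log2 fold change was -0.81 in CEBPA-first against CSF3R-first (SE 0.27, edgeR adjusted p = 0.026) and -0.96 in CSF3R-first against CSF3R-only (SE 0.28, edgeR adjusted p = 0.015), neither beyond the fold threshold. Without CSF3R-first replicate A the former was -0.47 and the latter was -1.30 and called. Without CEBPA-first replicate C the former was -1.04 and called. The latter was also called with limma voom (-1.02) and with the replicate letter added to the fit (-1.13).

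The levels of C5ar1 and C3ar1 were also set against each other within samples. In CSF3R-only the log2 CPM of C5ar1, not scaled for gene length, exceeded that of C3ar1 by 1.98 ± 0.13, in CSF3R-first by 1.60 ± 0.04, and in CEBPA-first the difference was -0.01 ± 0.25. The change in this difference was -1.99 between CEBPA-first and CSF3R-only, -1.61 between CEBPA-first and CSF3R-first and -0.38 between CSF3R-first and CSF3R-only (two-sided exact permutation p = 0.0286 each, 0.0613 adjusted over the 15 tests). Between C5ar1 and C5ar2 the corresponding changes were -0.77 (exact permutation p = 0.0286, adjusted 0.0613), -0.45 (0.0571, adjusted 0.107) and -0.33 (0.114, adjusted 0.171). The -0.45 was -0.29 without CSF3R-first replicate A.

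The lipid mediator receptors fell to a lesser extent than the formyl peptide and C5a receptors by their point estimates. Ltb4r1 (ENSMUSG00000046908, chr14:55765962-55768494, plus strand) encodes the high-affinity leukotriene B4 receptor. It was at 355, 369, 346 and 328 CPM in CSF3R-only, at 224, 116 and 164 CPM in CSF3R-first and at 59.2, 47.1, 74.8 and 45.1 CPM in CEBPA-first. CSF3R-only replicates were within a narrow band, and the groups did not overlap. Ltb4r1 fell 6.19-fold in CEBPA-first against CSF3R-only (log2 fold change -2.63, SE 0.19, edgeR adjusted p = 1.1e-07), 2.98-fold against CSF3R-first (-1.57, SE 0.20, edgeR adjusted p = 5.6e-05) and 2.08-fold in CSF3R-first against CSF3R-only (-1.06, SE 0.20, edgeR adjusted p = 0.0015). The last call was lost without CSF3R-first replicate B (-0.85). Its neighbour Ltb4r2, the low-affinity leukotriene B4 receptor, starts 4534 bp upstream on the same strand and was scarce, at 0.537 ± 0.152, 0.140 ± 0.138 and 0.115 ± 0.0749 CPM in the group order given above. Ltb4r2 fell in CEBPA-first (log2 fold change -2.22, edgeR adjusted p = 0.0017) and in CSF3R-first (-1.85, edgeR adjusted p = 0.018) against CSF3R-only. The difference in log2 CPM between Ltb4r1 and Ltb4r2 changed by -0.62, -1.45 and 0.83 in the 3 comparisons, in none of which the exact permutation p, at 0.2, 0.114 and 0.229, was under 0.05. Ltb4r2 rested on 3, 3 and 19 counts in CSF3R-first replicates A to C, and these changes moved with single libraries. The -1.45 was -0.91 without CSF3R-first replicate A, and the 0.83 was 0.30 without CSF3R-first replicate A and 1.42 without replicate C. With a prior count of 0.5 the -0.62 was -0.32.

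Ptafr (ENSMUSG00000056529, chr4:132564067-132582683, plus strand) encodes the receptor for platelet-activating factor. It was at 64.6, 52.7, 47.2 and 59.5 CPM in CSF3R-only, at 36.6, 24.3 and 21.6 CPM in CSF3R-first and at 11.4, 9.56, 10.5 and 8.63 CPM in CEBPA-first. No group reached into another, and the CEBPA-first samples were close together. Ptafr fell 5.59-fold in CEBPA-first against CSF3R-only (log2 fold change -2.48, SE 0.16, edgeR adjusted p = 3.7e-08), 2.74-fold against CSF3R-first (-1.45, SE 0.17, edgeR adjusted p = 2.7e-05) and 2.04-fold in CSF3R-first against CSF3R-only (-1.03, SE 0.17, edgeR adjusted p = 0.00057). The last call rested on single libraries, since the log2 fold change lay between -1 and -0.86 without CSF3R-only replicate A or D or CSF3R-first replicate B or C. Near-identical copies cover up to 3.77% of a Ptafr transcript. The difference in log2 CPM between Ltb4r1 and Ptafr changed by -0.18, -0.13 and -0.05 in the 3 comparisons (exact permutation p = 0.2, 0.571 and 0.8). The sign turned without replicate C of CSF3R-only (0.02), or without replicate B (0.12) or C (0.03) of CSF3R-first. The -0.18 was -0.30 without CEBPA-first replicate C and -0.11 without CSF3R-only replicate C.

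Cmklr1 (ENSMUSG00000042190, chr5:113612354-113650426, minus strand) encodes a receptor for chemerin, an attractant of macrophages and dendritic cells. It was the scarcest of the 8, at 3.67, 3.18, 3.26 and 3.97 CPM in CSF3R-only, 1.83, 0.966 and 1.18 CPM in CSF3R-first and 0.171, 0.102, 0.154 and 0.204 CPM in CEBPA-first. The CEBPA-first values rest on 6 to 16 counts per library, and the groups did not overlap. Cmklr1 fell 21.7-fold in CEBPA-first against CSF3R-only (log2 fold change -4.44, SE 0.25, edgeR adjusted p = 1.2e-08), 8.15-fold against CSF3R-first (-3.03, SE 0.27, edgeR adjusted p = 3.6e-06) and 2.66-fold in CSF3R-first against CSF3R-only (-1.41, SE 0.22, edgeR adjusted p = 0.00047).

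**Figure D2:**
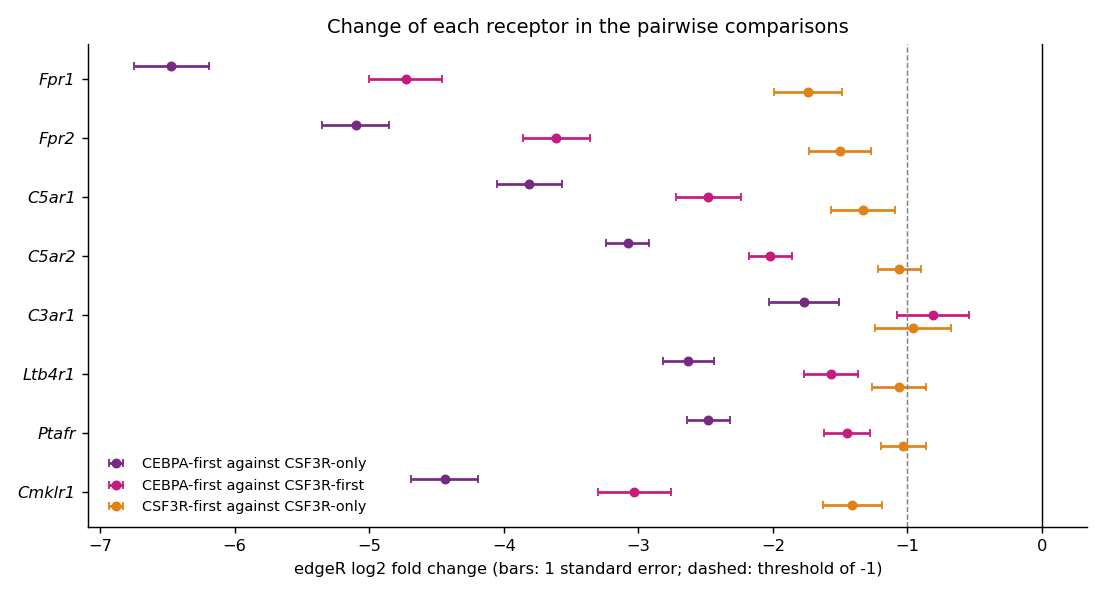
edgeR log2 fold change of each receptor (horizontal axis) in the 3 pairwise comparisons, with bars of 1 standard error and a dashed line at the threshold of -1. The changes in CEBPA-first against CSF3R-only run from -6.47 for Fpr1 to -1.77 for C3ar1, while those in CSF3R-first against CSF3R-only stay between -1.74 and -0.96.

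Levels were compared between genes per kilobase of exon. In CSF3R-only cells Fpr1 was the most abundant receptor at 420 ± 53.7 CPM per kb (SD, n = 4), followed by Ltb4r1 (251 ± 12.3), C5ar1 (176 ± 11.5), Fpr2 (78.7 ± 7.53), C3ar1 (26.5 ± 1.20), Ptafr (15.4 ± 2.10), C5ar2 (9.08 ± 0.921) and Cmklr1 (1.03 ± 0.108). The samples of no neighbouring pair in this order overlapped. In CSF3R-first the same order held by the means, but Fpr1 (126 ± 61.3, n = 3), Ltb4r1 (121 ± 38.9) and C5ar1 (70.1 ± 28.2) overlapped each with the next, as did C3ar1 and Ptafr. In CEBPA-first the order was another, led by Ltb4r1 at 40.6 ± 9.80 CPM per kb (n = 4), with C5ar1 (12.5 ± 3.35), C3ar1 (7.80 ± 3.05) and Fpr1 (4.75 ± 0.849) overlapping each with the next. Ptafr (2.76 ± 0.329) and Fpr2 (2.30 ± 0.347) overlapped as well and stood above C5ar2 (1.08 ± 0.220) and Cmklr1 (0.0463 ± 0.0125). Within single libraries the overlapping neighbours kept their order, except that Ltb4r1 stood above Fpr1 in CSF3R-first replicate C.

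The receptor make-up shifted from formyl peptide to leukotriene receptor transcripts. Summed per kilobase, the 8 receptors stood at 978 ± 75.8 in CSF3R-only, 371 ± 148 in CSF3R-first and 71.9 ± 17.1 CPM per kb in CEBPA-first. Fpr1 made up 42.9% ± 2.17, 33.4% ± 3.25 and 6.78% ± 1.33 of that sum in this order, and Ltb4r1 25.8% ± 2.12, 33.2% ± 3.93 and 56.5% ± 2.70. C3ar1 went from 2.73% to 3.72% and 10.5%, while C5ar1 held 18.0% ± 0.486, 18.9% ± 0.0634 and 17.4% ± 1.14. The shares are parts of a shrinking sum, and Ltb4r1 itself fell.

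**Figure D3:**
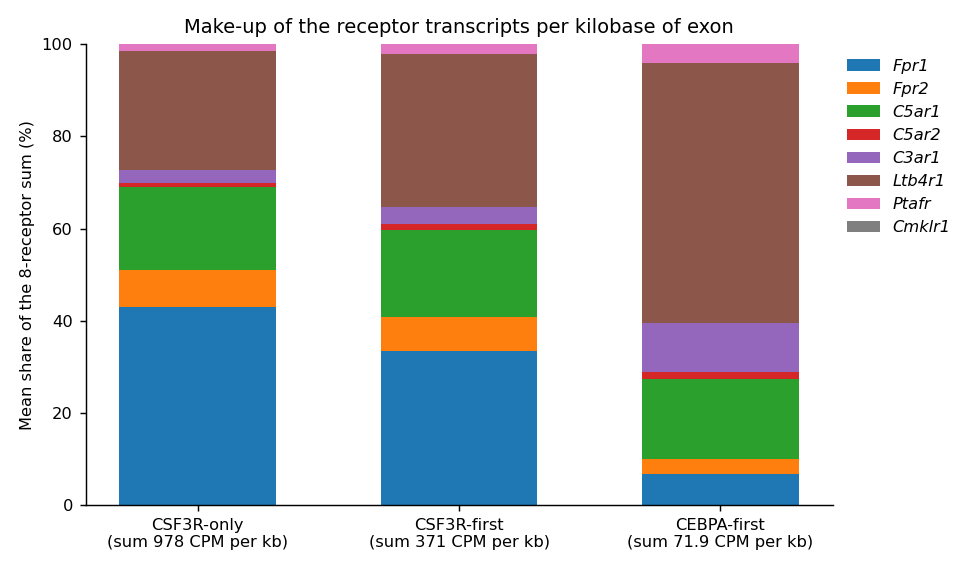
Mean share of each receptor in the sum of the 8 receptors per kilobase of exon (vertical axis, percent), 1 bar per group, with the sum under each bar. The Fpr1 segment shrinks from 42.9% to 6.78% and the Ltb4r1 segment grows from 25.8% to 56.5%.

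CSF3R-first libraries differed among themselves in the same way for nearly all receptors. Replicate A was the highest of the 3 for 8 of 8 receptors, and replicate B the lowest for 7, with replicate C the lowest for Ptafr. The highest library exceeded the lowest from 1.49-fold for C5ar2 to 2.26-fold for Fpr1. To place CSF3R-first between the other groups, each sample's log2 CPM was set on a scale from 0 at the CSF3R-only mean to 1 at the CEBPA-first mean. Fpr1 lay at 0.283 ± 0.100 (SD, n = 3), Fpr2 at 0.313 ± 0.126, Cmklr1 at 0.339 ± 0.108, C5ar2 at 0.349 ± 0.0939, C5ar1 at 0.363 ± 0.143, Ltb4r1 at 0.416 ± 0.179, Ptafr at 0.426 ± 0.161 and C3ar1 at 0.548 ± 0.274. The means of 7 receptors lay nearer CSF3R-only than CEBPA-first, and that of C3ar1 nearer CEBPA-first, with errors that overlap between neighbours. These sides rest on single libraries in part. C3ar1 moved to 0.438 without CSF3R-first replicate B, 0.498 without replicate C and 0.494 without CEBPA-first replicate C, and Ltb4r1 to 0.505 and Ptafr to 0.517 without CSF3R-first replicate A. The 2976 genes called lower in CEBPA-first against CSF3R-only had a median position of 0.403, and the middle 50% of them ran from 0.301 to 0.504. By library, the receptors were at 0.168 to 0.250 in replicate A, 0.350 to 0.768 in replicate B and 0.332 to 0.634 in replicate C. Summed neutrophil markers were 14800 to 25800 CPM across these 3 libraries, and their part in the spread was not tested.

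**Figure D4:**
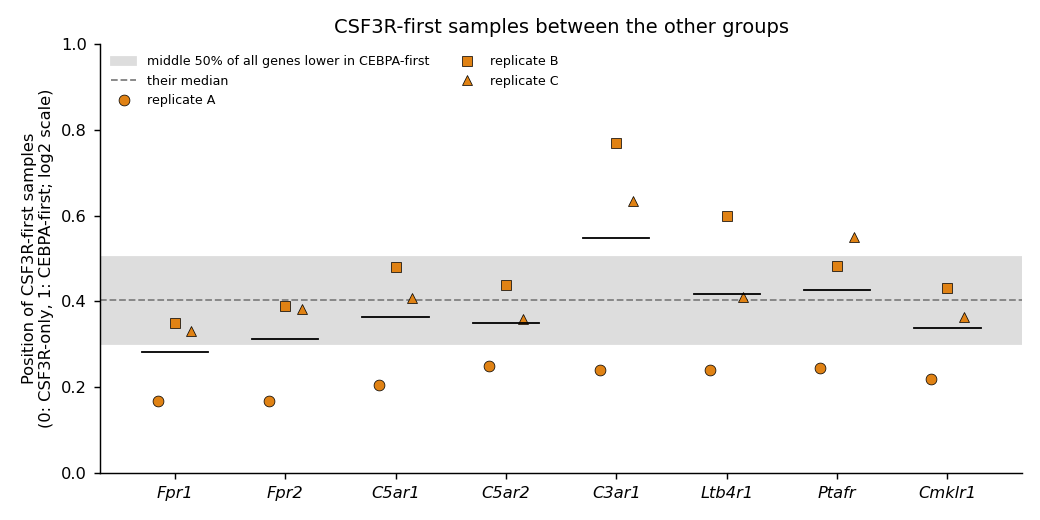
Position of each CSF3R-first sample (vertical axis, log2 scale, 0 at the CSF3R-only mean and 1 at the CEBPA-first mean) for each receptor, with a bar at the mean, a band for the middle 50% of the 2976 genes lower in CEBPA-first and a dashed line at their median. Replicate A lies lowest for every receptor, at 0.168 to 0.250.

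The upstream sequences were searched for the cores bound by factor families known to act in myeloid cells. The motifs, on both strands of windows from 250 bases before to 50 bases after each RefSeq start, were TTGCNNAA for C/EBP, GAGGAAG for PU.1 and TTCNNNGAA for STAT factors. They were found in 10.8%, 13.6% and 8.30% of all 32851 windows of that length, and in windows of 1, 2 and 1 of the 8 receptors. Distances are counted to the leftmost base of a match on the gene's strand, from 0 at the first transcribed base. Fpr2 had the STAT letters at -77 (TTCTGGGAA). C5ar2, which has 2 annotated starts, had the C/EBP letters at -210 (TTAAGCAA, on the other strand) and at -166 (TTGCCAAA) of the start with the window chr7:16244155-16244404, and the PU.1 letters at -26 of the other. Ltb4r1 had the PU.1 letters at -130 and at 1, both on the other strand (CTTCCTC). Its 250 upstream bases are chr14:55765712-55765961 on the plus strand and hold the first of these matches. Fpr1, C5ar1, C3ar1, Ptafr and Cmklr1 had none of these letters in their windows, and sequence outside the windows was not searched. A match is a description of the letters and not a binding site. The 250 upstream bases of C5ar2 at the former start (minus strand) and of Ltb4r1 are given with the matches inside them in capitals. The matches at -26 of the other C5ar2 start and at 1 of Ltb4r1 lie outside these runs.
C5ar2: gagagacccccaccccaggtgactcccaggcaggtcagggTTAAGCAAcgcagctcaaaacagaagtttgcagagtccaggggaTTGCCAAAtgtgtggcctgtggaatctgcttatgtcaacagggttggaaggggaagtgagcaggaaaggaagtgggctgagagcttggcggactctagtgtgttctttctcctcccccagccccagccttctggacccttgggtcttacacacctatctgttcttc
Ltb4r1: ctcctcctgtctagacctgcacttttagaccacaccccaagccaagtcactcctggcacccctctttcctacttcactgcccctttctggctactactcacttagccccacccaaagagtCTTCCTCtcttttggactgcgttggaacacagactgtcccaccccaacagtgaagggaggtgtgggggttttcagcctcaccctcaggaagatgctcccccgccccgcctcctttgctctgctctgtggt

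Genes with the most similar pattern were sought by the root mean square difference in centred log2 CPM over the 11 samples, a description with no test. Nearest to Fpr1 were Gm5416 (0.212) and the processed pseudogene Gm20796 (0.381), and nearest to Fpr2 were AA467197 (0.118) and the pseudogene Gm15931 (0.163). C5ar1 was most like Rufy4 (0.122) and S100a6 (0.126), and C5ar2 most like Pi16 (0.087) and B430306N03Rik (0.096). Emp1 (0.106) lay nearest to C3ar1. Ltb4r1 was nearest to Arl4c (0.099) and Smox (0.104), Ptafr to Ikbke (0.073) and Camk1d (0.091), and Cmklr1 to Traf1 (0.218) and Slc40a1 (0.226), the iron exporter ferroportin. By Pearson correlation in place of this measure, 5 of the 16 genes (2 per receptor) were chosen again. Among the receptors themselves, Ltb4r1 and Ptafr were most alike (0.236) and Fpr1 and C3ar1 least (2.09).

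Several ligands of these receptors and enzymes that make or remove them were lower in CEBPA-first. Of 13 tested genes, 9 were called lower and 1 higher in CEBPA-first against CSF3R-only, 9 and 1 against CSF3R-first, and 2 lower in CSF3R-first against CSF3R-only. Of all tested genes, 19%, 10.3% and 4.53% were called lower in these comparisons, and 8.07%, 2.57% and 2.13% higher. Their median log2 fold changes were -2.06, -1.21 and -0.84. CEBPA-first cells had less of Camp, whose cathelicidin peptide binds Fpr2, than CSF3R-only cells (log2 fold change -5.08, edgeR adjusted p = 2.8e-08), of Pla2g7, which degrades platelet-activating factor (-4.08, edgeR adjusted p = 3.6e-08), and of Saa3, a serum amyloid A (-3.26, edgeR adjusted p = 1.7e-07). For leukotriene B4, Alox5 (458 ± 19.7 to 112 ± 10.7 CPM) and Alox5ap (271 ± 9.62 to 65.2 ± 8.96 CPM) were called lower. Lta4h, which makes the final product, rose from 327 ± 9.78 to 505 ± 19.4 CPM (log2 fold change 0.63, edgeR adjusted p = 3.2e-06), not beyond the fold threshold. Lpcat2, which makes platelet-activating factor, went from 355 ± 37.1 to 80.9 ± 5.83 CPM, and complement C3 from 1490 ± 225 to 234 ± 30.0 CPM. Hc, which encodes C5, was higher (log2 fold change 2.67, edgeR adjusted p = 0.0056) at 0.0428 ± 0.0527 and 0.292 ± 0.154 CPM, on at most 26 counts in a library. Lpcat2, C3, Alox5 and Alox5ap are named as examples chosen after their values were seen.

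The signalling genes below the receptors changed far less by their medians. Of 21 tested G protein signalling genes, 5 were called lower in CEBPA-first against CSF3R-only, a share near the 19% of all tested genes. The lowest were Gngt2, a G protein gamma subunit (log2 fold change -2.31, edgeR adjusted p = 4e-08), Plcb2, a phospholipase C beta (-1.31, edgeR adjusted p = 1.4e-09), and Pik3r6, a subunit of phosphoinositide 3-kinase gamma (-1.19, edgeR adjusted p = 2.5e-06). The list's medians were -0.51, -0.32 and -0.33 in the 3 comparisons. Gngt2 was the gene called lower against CSF3R-first, and was also lowest in CSF3R-first against CSF3R-only, at -0.86. Gnai2, an inhibitory alpha subunit, was at 1620 ± 51.4, 1300 ± 188 and 934 ± 45.5 CPM in the same group order and was named after its values were seen. Of 12 desensitisation genes, the kinase Grk5 (-2.59, edgeR adjusted p = 6e-08) and the arrestin Arrb2 (-1.25, edgeR adjusted p = 7.6e-08) fell and the kinase Grk3 rose (1.56, edgeR adjusted p = 3.4e-09) in CEBPA-first against CSF3R-only, again a share of lower genes near that 19%. Of the 12 related receptors only 5 had enough counts to test, and of these Ltb4r2 and Ccrl2, a chemerin-binding receptor that does not signal (14.8 ± 1.35 to 4.23 ± 0.328 CPM, log2 fold change -1.80, edgeR adjusted p = 1.1e-06), fell. Fpr-rs3, Fpr-rs4, Fpr-rs6 and Fpr-rs7, which lie in the formyl peptide receptor family, had 0 counts in all 11 samples.

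**Figure D5:**
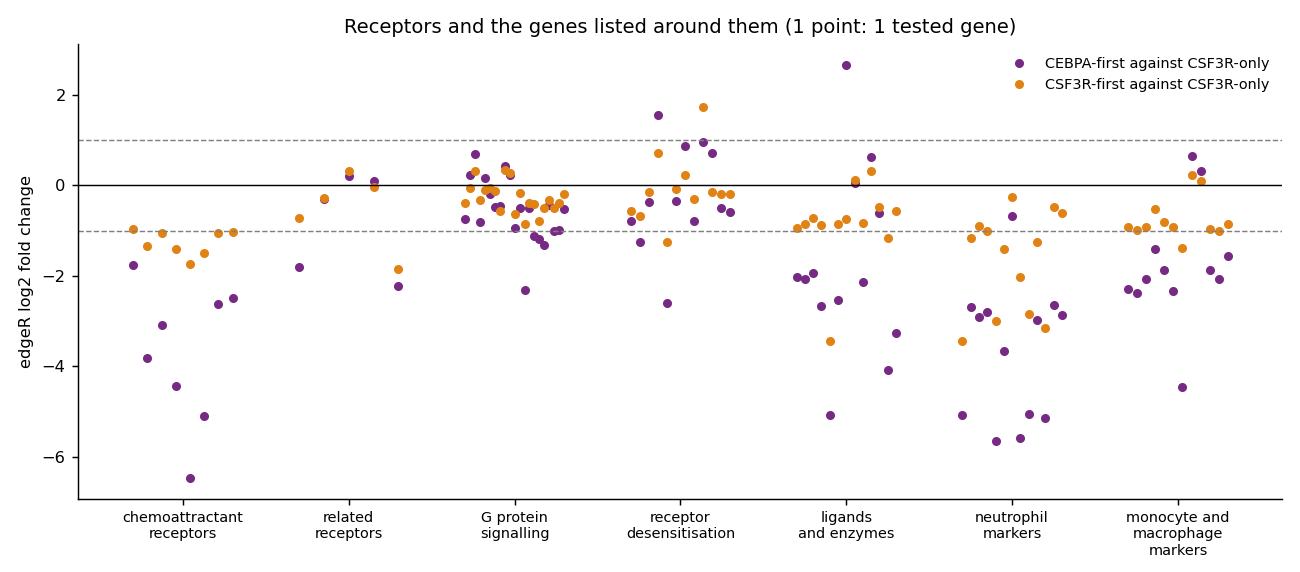
edgeR log2 fold change (vertical axis) of each tested gene in the receptor list and in the lists around it, in CEBPA-first against CSF3R-only and in CSF3R-first against CSF3R-only, with dashed lines at 1 and -1. The receptors have a median of -3.45 in CEBPA-first, the ligands and enzymes -2.06, the G protein signalling genes -0.51 and the neutrophil markers -2.98.

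Most neutrophil markers, and most monocyte and macrophage markers in CEBPA-first, were also lower. Of 13 neutrophil markers, 12 were called lower in CEBPA-first against CSF3R-only, 12 against CSF3R-first and 9 in CSF3R-first against CSF3R-only, with median log2 fold changes of -2.98, -2.02 and -1.26. The secondary granule protein Ltf (-5.65, edgeR adjusted p = 1.7e-08), the gelatinase Mmp9 (-5.59, edgeR adjusted p = 9.7e-10) and Retnlg (-5.14, edgeR adjusted p = 4e-09) fell most in CEBPA-first against CSF3R-only. Summed neutrophil markers were 27200 to 33600 CPM for CSF3R-only, 14800 to 25800 for CSF3R-first and 6530 to 8690 for CEBPA-first. Of 12 monocyte and macrophage markers 10, 7 and 1 were called lower, with sums of 2930 to 3730, 1640 to 2810 and 932 to 1300 CPM across the groups. The shares of all tested genes called lower were 19%, 10.3% and 4.53%, so that 1 of 12 is a share close to the background. Cx3cr1 had a log2 fold change of -4.46, C1qa of -2.37 and Csf1r of -2.34 in CEBPA-first against CSF3R-only. The 2 genes of this list that were not called there had higher values in CEBPA-first, with log2 fold changes of 0.65 for Fcgr1 (edgeR adjusted p = 8.1e-05) and 0.32 for Ly6c2 (edgeR adjusted p = 0.043). No marker on either list was at 0 throughout a group. Their part in the receptor values was not tested.

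Markers of other lineages were also followed, and their counts stand against the same 19%, 10.3% and 4.53% of all tested genes called lower. Megakaryocyte markers were called lower for 6, 5 and 6 of 6 genes in the 3 comparisons (840 to 1140, 328 to 507 and 110 to 154 CPM, groups ordered as before), with Ppbp and Gp9 lowest. Erythroid markers were called lower for 7 and 6 of 8 genes in the comparisons of CEBPA-first (239 to 348, 104 to 330 and 25.6 to 39.5 CPM), with Hba-a2, Hbb-bs and Alas2 lowest. Eosinophil markers were called lower for 4, 2 and 3 of 6 genes (245 to 365, 60.8 to 140 and 30.6 to 38.2 CPM), with Epx, Prg2 and Prg3 lowest. Mast cell and basophil markers went both ways in CEBPA-first against CSF3R-only, with 4 of 9 called lower, lowest for Tpsb2, Mcpt8 and Cma1, and Fcer1a called higher (2140 to 3150, 1330 to 1620 and 1380 to 1810 CPM). B cell markers, of which 2 of 6 could be tested, summed to at most 6.81 CPM in a sample, T and NK cell markers, of which Cd3e was at 0 in every sample, to at most 134 CPM, and dendritic cell markers to at most 14.6 CPM. In CEBPA-first against CSF3R-only Cd79a, Cd3d, Nkg7 and Itgax were called lower and Klrb1c and Flt3 higher. The part of these cells in the receptor values was not tested either.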

How the data were processed

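RNA-seq was run on 11 samples in 3 groups, taken from the sample titles. The authors used Trimmomatic for read trimming and STAR for alignment, and deposited raw counts per gene, without normalization. The submitters' processing notes name mm10, STAR and DESeq2. The counting tool, the annotation and the use of strand are not given in the sources used here, so reads of overlapping or antisense genes cannot be told apart. Of 51912 identifiers, 51633 matched a symbol, 279 had none and 23409 had no count in any sample. Replicates differed by more than sampling noise in every group (chi-square per degree of freedom 9.24 to 103), so none was treated as a copy of another library. Repeat libraries of the same sample could differ so too, and these values cannot tell whether the replicates are separate. A count of 0 allows up to 3 counts, and such limits cover counting error only.

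Counts were filtered with filterByExpr (15703 genes left), scaled with TMM and tested with edgeR 4.0.16 (quasi-likelihood, R 4.3.3) in one fit of all samples without covariates, with Benjamini-Hochberg adjustment over all tested genes. log2 CPM used a prior count of 2. For receptor pairs, differences within samples entered exact permutation tests (two-sided). Alternatives used DESeq2 1.42.0, voom of limma 3.58.1, other scalings, filters and thresholds, a replicate block, only the compared groups in the fit, and each sample left out in turn. Figures were drawn with matplotlib 3.10.9. Positions and exon lengths are from the GENCODE annotation of GRCm38, near-identical stretches (97% over 100 bp) from BLAST 2.17.0, and upstream sequences from RefSeq (GRCm38.p6), where 8 of 8 receptors matched. On simulated counts for CEBPA-first against CSF3R-only, 200 of 200 changed genes were recovered and 3 of the other tested genes were called. The planted log2 fold changes were 2 or 3 in size, in genes above 1 CPM on average. Changes near the fold threshold, scarcer genes and comparisons with CSF3R-first were not covered by it.

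The members and lists were chosen with earlier results of these data known. Text names all members, Ltb4r2, mouse Cebpa and Csf3r, the 2 most similar genes per member and, per list, up to 3 genes that rose and 3 that fell most in CEBPA-first against CSF3R-only among those past the threshold. Exceptions are marked, apart from the following. Fcgr1 and Ly6c2 are the uncalled markers of their list, and Cd3e was named for its 0 counts. Lta4h, Fpr3 and the Fpr-rs genes were named for their function. Some genes that the rule names are not reported here. Some list members are also markers (Camp). The study's other experiments were not analysed here.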

Additional observations from a re-analysis of the deposited data

How the results depend on the processing

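Every receptor stayed lower in each comparison under each alternative in which it was tested. Cmklr1 was not tested with at least 10 counts in every sample, where 7, 6 and 6 receptors were called. Of the alternative receptor fold changes, 463 kept their side of the threshold, 10 lost it, 4 gained it and 0 reversed. Among the counts of receptors called, that in CSF3R-first against CSF3R-only moved most. It went from 7 to 4 by library size only and to 0 with edgeR's glmTreat against a log2 fold change of 1 (4 at an unadjusted p under 0.05). DESeq2 called 7 there and limma voom 8. The same count ranged from 4 to 8 with single samples left out (4 without CSF3R-first replicate B, 8 without CSF3R-first replicate A). By edgeR's quasi-likelihood test 8 of 8 had an adjusted p under 0.05 there, which C3ar1 lost without CSF3R-first replicate B (0.073) or C (0.062). In CEBPA-first against CSF3R-first C3ar1 lost it without CSF3R-first replicate A (0.16) or CEBPA-first replicate B (0.073) or with only the compared groups (0.06). With single samples left out the counts in the other comparisons were 8 to 8 and 7 to 8. The calls lost by library size only were C5ar2 (-0.98), Ltb4r1 (-0.98) and Ptafr (-0.95). That scaling shifted the median of all genes by 0.133, 0.049 and 0.085 in the 3 comparisons as ordered in the report. C3ar1 passed with limma voom (-1.02) in CSF3R-first against CSF3R-only. Ptafr also missed it with no filter (-0.98). The cause was not tested.

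The counts of all genes called, 4244, 2016 and 1045 in the 3 comparisons, became 11314, 7578 and 6703 with no fold change minimum and 2495, 799 and 201 with glmTreat, which are wider and narrower rules by construction. With at least 10 counts in every sample, where fewer genes are tested, they were 1219 in CEBPA-first against CSF3R-first and 566 in CSF3R-first against CSF3R-only. With single samples left out they ranged from 3893 to 4433, 1723 to 2191 and 819 to 1435. Without single libraries the Ltb4r1 and Ptafr difference ranged from -0.22 to 0.12 in CSF3R-first against CSF3R-only, reversing at 0.02 and 0.12, and from -0.30 to 0.03 in CEBPA-first against CSF3R-first, reversing at 0.03. By Pearson correlation 5 of the 16 similar genes were shared.

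Same-lettered samples did not deviate together throughout (correlations -0.107 to 0.362), so the letters were not taken to pair samples. With a replicate block 8, 7 and 8 receptors were called, C3ar1 in CSF3R-first against CSF3R-only being the one gained (log2 fold change -1.13, edgeR adjusted p = 0.0035), and not every sample correlated best with its own letter. Depth limits the low values of Cmklr1 and Ltb4r2.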
